A study of Mus musculus with 8 samples.

Results

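Genes of sensory nerve signalling were followed in the posterior capsule of the mouse knee, which is the fibrous wall at the back of the joint. The 9 genes were Calca, Tacr1, Calcrl, Ramp1, Bdnf, Ntf3, Gdnf, Ntn1 and Trpv1, taken by symbol from a table of 16464 genes, and all 9 were found. All mice were wild-type C57BL/6, and the labels give their age as 10 weeks. The naive group held 4 libraries and is described by the labels as naive only. The cast group held 4 libraries of male mice whose knee was fixed at 140 degrees in a cast for 2 weeks, begun at 8 weeks of age. No label says that each library came from its own mouse, so p values here reflect only how far these samples spread, which may be technical. The series addresses how gene expression in the joint capsule differs after the knee has been kept immobile.

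Sensory nerve endings in joint tissue release the neuropeptides substance P and calcitonin gene-related peptide (CGRP). Tacr1 encodes the receptor of substance P. Calca encodes CGRP and, by alternative splicing, calcitonin, and a count per gene does not separate these products. Calcrl needs a partner protein: with Ramp1 it forms the CGRP receptor, and with Ramp2 or Ramp3 it forms adrenomedullin receptors, which are prominent on blood vessels. Bdnf and Ntf3 encode neurotrophins, which keep neurons alive and act through the kinases Ntrk2 and Ntrk3. Gdnf encodes a survival factor that binds Gfra1 and signals through Ret. Ntn1 encodes netrin 1, a secreted guidance cue of growing axons that also acts on vessels and bone cells, and Trpv1 encodes the ion channel opened by heat and capsaicin. The messenger RNAs of most sensory genes lie in nerve cell bodies outside the joint, so a capsule library samples mainly the resident cells and the RNA present in nerve fibres.

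Stretches before annotated transcript starts are shown for Calca and Tacr1, which are the members that passed the test upward, and for Bdnf, which came next by p value. They come from RefSeq's promoter windows on build GRCm38.p6, in which 8 of the 9 members had an entry (all but Ntn1), with 16 windows of 250 bases before a start. Any part that lies in an annotated exon was left out. Capitals mark TGACG or its reverse complement CGTCA, the core of the cAMP response element (CRE). That element is the binding sequence of the transcription factor CREB. The Calca stretch is chr7:114636358-114636607 (minus strand), the Tacr1 stretch is chr6:82402225-82402333 (plus strand), and the Bdnf stretch, before 1 of its 7 listed starts, is chr2:109692186-109692435 (plus strand). Of the Bdnf windows, only the window shown held the core.
Calca: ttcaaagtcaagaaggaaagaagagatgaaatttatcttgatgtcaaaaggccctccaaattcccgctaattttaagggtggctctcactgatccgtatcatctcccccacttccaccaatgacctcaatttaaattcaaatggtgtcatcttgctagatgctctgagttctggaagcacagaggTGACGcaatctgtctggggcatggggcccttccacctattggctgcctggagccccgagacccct
Tacr1: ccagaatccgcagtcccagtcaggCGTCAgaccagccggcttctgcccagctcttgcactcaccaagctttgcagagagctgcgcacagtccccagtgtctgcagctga
Bdnf: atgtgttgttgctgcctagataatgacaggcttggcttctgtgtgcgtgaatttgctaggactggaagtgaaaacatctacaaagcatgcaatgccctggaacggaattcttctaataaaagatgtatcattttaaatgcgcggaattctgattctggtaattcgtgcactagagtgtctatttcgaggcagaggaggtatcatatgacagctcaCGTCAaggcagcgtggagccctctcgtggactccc
The core began 65 bases before the RefSeq start in Calca, 226 before it in Tacr1 and 35 before it in Bdnf. In Tacr1 that start is at 82402475, whereas the stretch shown ends at 82402333, before the part left out. On either strand the core was present in 4 of the 16 members' windows, against 17.77% of 32851 windows in all. The 4 were those of Calca and Tacr1, 1 of Bdnf and 1 of Gdnf. The full element TGACGTCA, which contains the core, was in 0 of the 16 and in 1.55% of all windows. The AP-1 site TGANTCA was in 1 of the 16, a further Bdnf window, and in 6.75% of all. A match is a description of the letters and not a sign of binding.

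The table gives normalised read counts, and the unit below is that value unless reads are named. Whole reads could be recovered from it, between 5956148 and 7381255 in 7 libraries and 1503880 in naive replicate 4. One read was thus worth 0.647 in naive replicate 4 and 0.133 to 0.165 elsewhere, and the limit that 0 reads allow (3 reads) was 1.94 in that library against 0.400 to 0.496. The log2 profile of naive replicate 4 across genes had a correlation of 0.882 to 0.897 with the other naive libraries, against 0.979 to 0.982 among those 3. Genes are not independent replicates, so these values only describe the libraries. Neutrophil markers summed to 23.0 to 64.2 in naive and 667 to 5774 in cast libraries. Muscle markers summed to 114 to 2790 in naive libraries, lowest in naive replicate 4, and to 16.3 to 390 in cast libraries. Markers of marrow precursors summed to 93.1 and 249 in cast replicates 1 and 2 and to 3.64 to 12.5 in all other libraries.

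Of the 9 members, Tacr1 and Calca rose after casting, Ntn1 fell, and 6 did not pass the test (limma, Benjamini-Hochberg adjusted p at most 0.05 over 15120 genes). Over all genes tested, 12.0% passed, 6.51% upward and 5.46% downward. The groups did not overlap for the same 3 members, against 20.5% of all genes (11.1% higher and 9.39% lower in cast libraries). By count models on the recovered reads, edgeR called Tacr1, Calca and Ntn1 (13.5% of all genes called) and DESeq2 called those and Bdnf (18.2% of all genes called). The median log2 fold change of the members was 0.36 beside 0.07 for all genes tested. A positive log2 fold change means a higher level in cast libraries, computed on log2(value + 1), which understates the change of low genes. In bulk tissue, fewer cells of a type and less RNA per cell cannot be told apart.

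**Figure D1:**
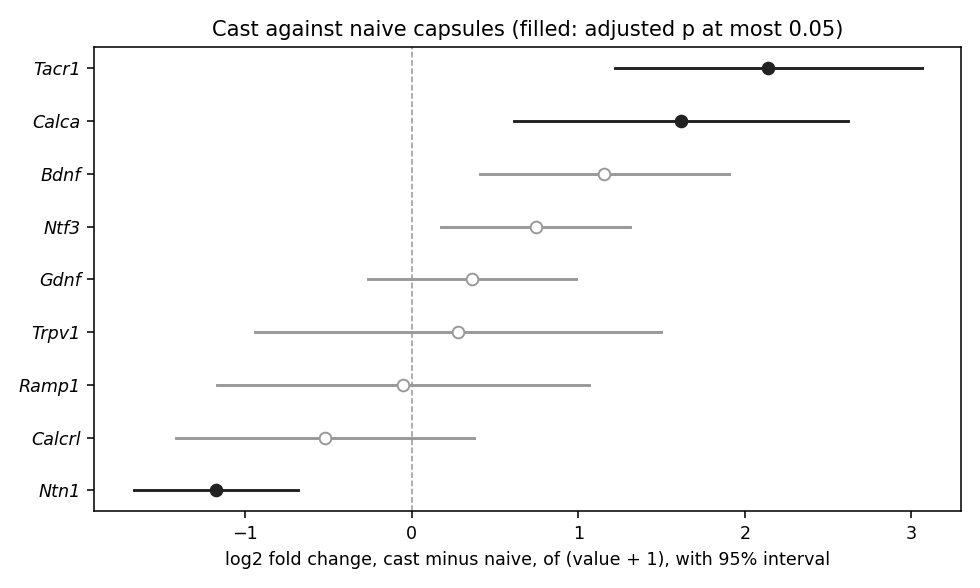
Log2 fold change of each member, cast minus naive, of (value + 1), with its 95% interval from limma; filled points passed an adjusted p of 0.05. Tacr1 at 2.14 and Calca at 1.62 lie to the right of 0, Ntn1 at -1.18 to the left, and the intervals of Calcrl, Ramp1, Gdnf and Trpv1 hold 0.

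Tacr1 is the substance P receptor gene (chromosome 6, 82402334 to 82560104, plus strand, GENCODE M21 on GRCm38). On log2(value + 1), it had the largest log2 fold change of the members. By the count models, Tacr1 (edgeR 2.11, DESeq2 2.14) came after Calca (3.97 and 4.12) and Bdnf (2.31 and 2.40). Its value was 13.4, 3.71, 6.45 and 3.23 in naive replicates 1 to 4 and 20.6, 25.03, 49.9 and 27.3 in cast replicates 1 to 4. Each cast library was above each naive library, with cast replicate 3 highest and naive replicate 1 nearest to the cast range. The means were 6.70 ± 4.69 and 30.7 ± 13.1 (SD, n = 4 each), and the log2 fold change was 2.14 with a standard error of 0.41 (limma adjusted p = 0.0109; two-sided exact permutation p = 0.0286, the smallest that 4 against 4 allow). Its change was larger in size than that of 97.8% of the genes tested, while its level was above that of 46.5% of them. The reads behind it were 156 in naive and 863 in cast libraries. Without any 1 library its adjusted p was 0.00493 to 0.0367, and without cast replicates 1 and 2 it was 0.0489. With the muscle markers' level as a covariate the log2 fold change was 2.45 (adjusted p = 0.0254).

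Of 7 tested genes of the tachykinin list, which includes the peptidases that cleave neuropeptides, Tacr1 rose, Dpp4 fell and 5 did not pass, and the median log2 fold change was 0.14. Dpp4, a surface peptidase of fibroblasts and immune cells, fell from 45.9 ± 4.13 to 13.8 ± 2.95 (log2 fold change -1.68, adjusted p = 0.00111). Mme encodes neprilysin, which degrades substance P, and was chosen after its values were seen. It was 103 ± 67.3 in naive and 403 ± 182 in cast libraries, which did not overlap. Its log2 fold change was 2.34 (limma adjusted p = 0.0787), called by DESeq2 (adjusted p = 0.0102) but not by edgeR. Naive replicate 4 was lowest at 10.996, and naive replicate 1 at 171 was close to cast replicate 1 at 177. In the whole list, 2 genes lay higher in cast libraries without overlap and 2 lay lower. Tac1, the substance P gene, had no row under that symbol and so was not analysed here.

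Calca, the CGRP gene (chromosome 7, 114631478 to 114636357, minus strand), rose from nearly no reads. It had 1, 1, 2 and 0 reads in naive replicates 1 to 4 and 55, 8, 15 and 10 reads in cast replicates 1 to 4. The values were 0.151, 0.161, 0.331 and 0 in naive and 9.06, 1.20, 2.05 and 1.33 in cast libraries. The groups did not overlap, although cast replicate 1 alone held most of the cast reads, and cast replicates 2 and 4 lay below the 1.94 that 0 reads allow in naive replicate 4. The means were 0.161 ± 0.135 and 3.41 ± 3.79, and the log2 fold change was 1.62 with a standard error of 0.45 (limma adjusted p = 0.0448; two-sided exact permutation p = 0.0286). The ratio of reads pooled over each group was 16.3 (95% counting interval 6.15 to 61.1, conditional binomial, counting error only). Without cast replicate 1 the adjusted p was 0.0248, but without any 1 of the other 7 libraries the call was lost (adjusted p = 0.0504 to 0.100). It was also lost when every library was thinned to the reads of naive replicate 4 (adjusted p = 0.0652), and in 4 further alternatives. Marrow precursor markers were high in cast replicates 1 and 2, and Calca in cast replicate 1 but not in cast replicate 2. Their part in the result was not tested.

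Calcrl, the shared receptor chain (chromosome 2, 84330626 to 84425411, minus strand), did not pass the test with all 8 libraries. Its value was 202, 291 and 310 in naive replicates 1 to 3, 74.4 in naive replicate 4, and 116, 150, 145 and 125 in cast replicates 1 to 4. The cast libraries lay close together, between naive replicate 4 and the other naive libraries. The means were 219 ± 107 and 134 ± 16.3 (log2 fold change -0.52, 95% interval -1.42 to 0.37, adjusted p = 0.453). Without naive replicate 4 the log2 fold change was -0.97 (adjusted p = 0.00620). With the muscle covariate it was 0.37 (adjusted p = 0.608), the opposite direction. Calcrl is prominent in endothelium, and 11 of 11 endothelial markers were tested, of which limma called 0 (1 at an unadjusted p under 0.05; edgeR called 0 and DESeq2 1). Those markers summed to 1072 to 1605 in naive libraries, highest in naive replicate 4, and to 1141 to 1594 in cast libraries. Calcrl came to 18.8%, 25.5%, 25.7% and 4.64% of that sum in naive replicates 1 to 4, and to 10.03%, 13.2%, 10.3% and 7.82% in cast replicates 1 to 4. As with the values themselves, naive replicate 4 lay below all cast libraries and the other naive libraries above them.

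Ramp1, the subunit that makes Calcrl a CGRP receptor (chromosome 1, 91179822 to 91225196, plus strand), showed no call. Its value was 3.32, 3.71, 9.26 and 20.7 in naive replicates 1 to 4 and 7.09, 11.5, 5.04 and 5.33 in cast replicates 1 to 4. The cast libraries lay within the naive range, and naive replicate 4, with 32 reads, was highest. The log2 fold change was -0.06 (95% interval -1.17 to 1.06, adjusted p = 0.955), so a change of up to about 2-fold in either direction is inside the interval. Its sign turned in 6 of 23 alternative fits, for example to 0.41 without naive replicate 4 (adjusted p = 0.472). Ramp2, the adrenomedullin subunit, was 66.7 ± 32.3 in naive and 47.2 ± 3.17 in cast libraries (adjusted p = 0.412), and it passed downward with the muscle covariate (log2 fold change -1.08, adjusted p = 0.0342). Its log2 fold change of -0.39 was -0.10 without naive replicate 4, the highest library. It shares exon sequence with Vps25 on the same strand, so its level is uncertain. Ramp3 had 3 naive and 14 cast reads in all and was below the filter. Adm, which encodes adrenomedullin, rose with casting, at 29.7 ± 3.55 in naive and 75.9 ± 33.2 in cast libraries (log2 fold change 1.24, adjusted p = 0.0215). The call ended when naive replicate 2 or 3, or cast replicate 2 or 3, was dropped (highest adjusted p = 0.0647), and with the muscle covariate (adjusted p = 0.122). Of 6 tested genes of this family, Calca and Adm rose and 4 did not pass, with a median of 0.21.

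**Figure D2:**
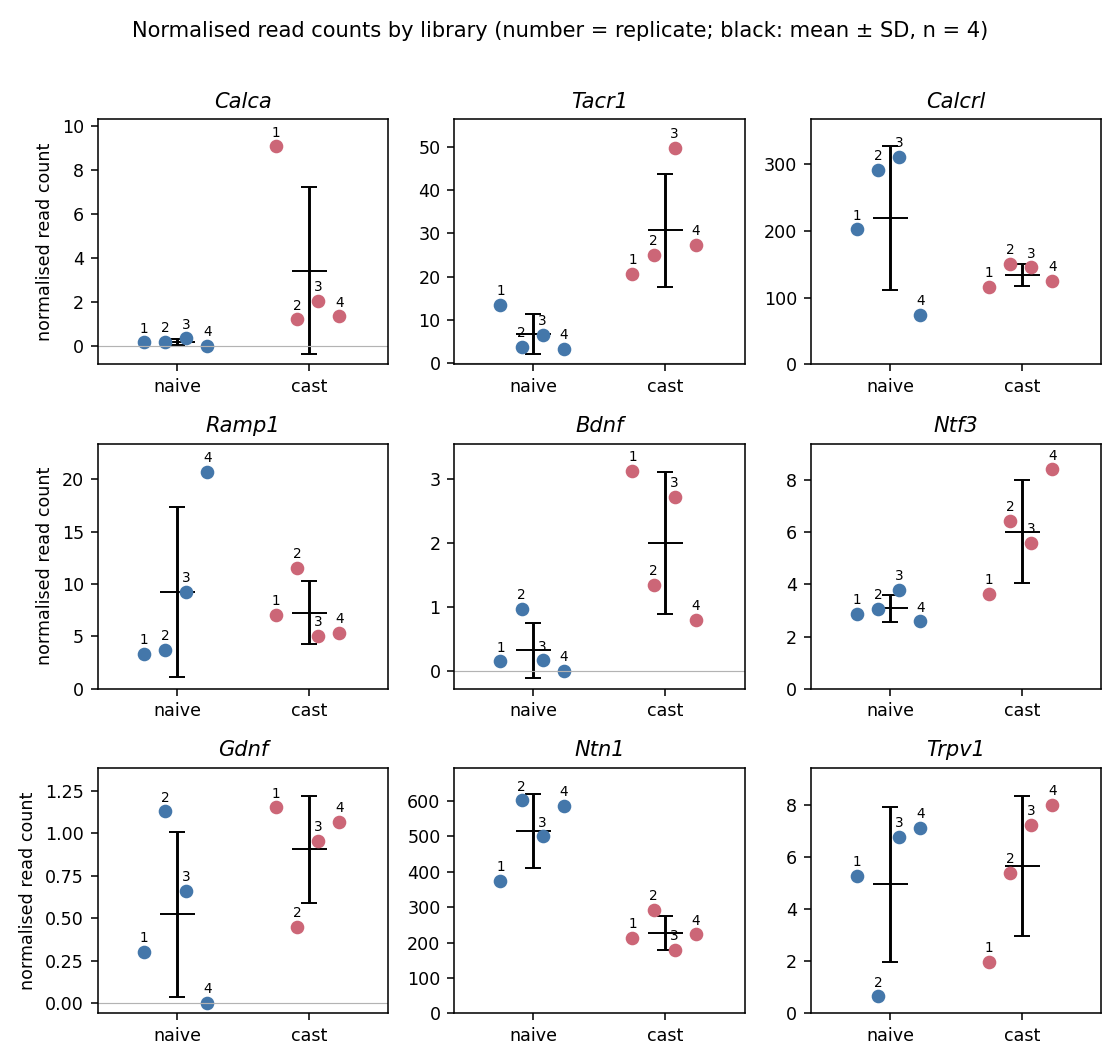
Normalised read counts of the 9 members in each library; points carry the replicate number, and the black bar is the mean ± SD of 4 libraries. The groups are apart for Calca, Tacr1 and Ntn1, Calca is led by cast replicate 1 at 9.06, and naive replicate 4 stands below the other naive libraries in Calcrl and above them in Ramp1.

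Bdnf, a neurotrophin gene (chromosome 2, 109674700 to 109727007, plus strand), had few reads in every library and just missed the threshold. It had 1, 6, 1 and 0 reads in naive replicates 1 to 4 and 19, 9, 20 and 6 in cast replicates 1 to 4. The values were 0.151, 0.968, 0.165 and 0 in naive and 3.13, 1.35, 2.73 and 0.800 in cast libraries. Naive replicate 2 was above cast replicate 4, and the other cast libraries were above all naive ones. The log2 fold change was 1.16 with a standard error of 0.33 (limma adjusted p = 0.0524; two-sided exact permutation p = 0.0571). The ratio of pooled reads was 5.001 (95% counting interval 2.37 to 12.2). It passed in 8 of 22 alternative fits, among them DESeq2 (adjusted p = 0.0320) and the fit without naive replicate 2 (adjusted p = 0.0474). Gm45346 overlaps its exons on the opposite strand, and whether counting used the strand is not given in the sources used here.

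Ntf3, the neurotrophin 3 gene (chromosome 6, 126101412 to 126166910, minus strand), was 2.86, 3.07, 3.80 and 2.59 in naive replicates 1 to 4. The cast libraries, in the order of replicates 1 to 4, had 3.63, 6.44, 5.59 and 8.40. Cast replicate 1 fell among the naive libraries, and the other cast libraries lay above all of them. The means were 3.08 ± 0.520 and 6.02 ± 1.98 (log2 fold change 0.74, 95% interval 0.18 to 1.31, adjusted p = 0.0904). Without cast replicate 1 it passed (log2 fold change 0.93, adjusted p = 0.0406). Its 4 naive libraries had a coefficient of variation of 16.9%, the lowest of any member in the naive group. Those values rest on 19, 19, 23 and 4 reads in naive replicates 1 to 4, so the low figure does not show a steady level.

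The neurotrophin receptor kinases were lower in cast capsules. Ntrk3, the receptor of neurotrophin 3, fell from 80.3 ± 20.9 to 14.5 ± 2.19 (log2 fold change -2.37, adjusted p = 0.000371), and the call held without any 1 library (adjusted p at most 0.00273). Ntrk2, the receptor of Bdnf, was 295 ± 30.3 and 184 ± 32.4 (log2 fold change -0.69, adjusted p = 0.0364). That call ended when any 1 library other than naive replicate 4 or cast replicate 4 was dropped (highest adjusted p = 0.111), and with the muscle covariate (adjusted p = 0.0736), thinned reads (0.0992), the replicate block (0.0583) or both cast replicates 1 and 2 dropped (0.105). Ngfr, the shared low-affinity receptor, was 3.20 ± 2.19 and 4.16 ± 2.98 (log2 fold change 0.24, adjusted p = 0.776), with its sign turned in 3 alternative fits. Of the convertases and sorting receptors in the list, Sorcs2 was 15.8 ± 4.90 in naive and 107 ± 39.7 in cast libraries and rose (log2 fold change 2.66, adjusted p = 0.00108). Pcsk5 rose too, 27.8 ± 2.63 against 132 ± 48.4 (log2 fold change 2.13, adjusted p = 0.00112). Pcsk6 fell from 669.9 ± 46.5 to 119 ± 44.9 (log2 fold change -2.57, adjusted p = 0.000599). In all, 3 of 13 tested genes of this list rose, 4 fell and 6 did not pass, and the median was 0.15. Ntf5 had no row under that symbol and so was not analysed here.

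Gdnf (chromosome 15, 7810846 to 7837575, plus strand) was at the limit of detection. It had 2, 7, 4 and 0 reads in naive replicates 1 to 4 and 7, 3, 7 and 8 in cast replicates 1 to 4. The values were 0.301, 1.13, 0.661 and 0 in naive and 1.15, 0.450, 0.954 and 1.07 in cast libraries, and the groups overlapped. A difference was not detectable at this depth (log2 fold change 0.36, 95% interval -0.26 to 0.99, adjusted p = 0.454). With 1 library left out the log2 fold change was 0.18 to 0.54, and with thinned reads it was 0.79 (adjusted p = 0.326). The ratio of pooled reads was 1.42 (95% counting interval 0.702 to 3.03).

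The receptors of the GDNF family moved in opposite directions. Gfra1, which binds Gdnf, rose, with 16.5 ± 2.98 in naive and 126 ± 36.8 in cast libraries (log2 fold change 2.82, adjusted p = 0.000213). Gfra2, which binds neurturin, fell from 26.7 ± 8.57 to 5.78 ± 3.16 (log2 fold change -2.11, adjusted p = 0.00635). Both calls held without any 1 library (adjusted p at most 0.00148 and 0.0260). Gfra4 rose from 2.84 ± 0.545 to 6.03 ± 0.717 (adjusted p = 0.0217), a call that ended when naive replicate 1 or 2, or cast replicate 2 or 3, was dropped (highest adjusted p = 0.0684). It also ended with thinned reads (0.267), without both cast replicates 1 and 2 (0.131), with quantile normalisation (0.078), the replicate block (0.0697) and the muscle covariate (0.0552). Ret, the signalling chain, was 28.7 ± 12.2 and 18.7 ± 5.79 (log2 fold change -0.54, adjusted p = 0.335). Of 11 tested genes 2 rose, 1 fell and 8 did not pass, with a median of 0.24. Gfra1 shares exon sequence with Gm16277 on the opposite strand.

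Ntn1, the netrin 1 gene (chromosome 11, 68209364 to 68400823, minus strand), was the most abundant member and fell. Its value was 374, 602, 499.8 and 586 in naive replicates 1 to 4 and 214, 293, 179 and 223 in cast replicates 1 to 4. Each naive library was above each cast library, with naive replicate 1 and cast replicate 2 nearest to each other. The means were 515 ± 104 and 227 ± 48.0, so the naive mean was 2.27 times the cast mean (log2 fold change -1.18, standard error 0.22; limma adjusted p = 0.00977; two-sided exact permutation p = 0.0286). It rested on 10141 naive and 6239 cast reads. The call held without any 1 library (adjusted p = 0.00796 to 0.0376), without cast replicates 1 and 2 and with thinned reads. Muscle markers were low in naive replicate 4, within the cast range, while Ntn1 was 586 there. That is 1 library, the one with the fewest reads, and the part of muscle in the fall was not tested. With the muscle covariate the log2 fold change of Ntn1 was -1.42 (adjusted p = 0.0178).

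Other netrins and receptors mostly did not pass. Ntn4, a netrin of basement membranes, fell from 98.3 ± 27.2 to 42.3 ± 7.30 (log2 fold change -1.18, adjusted p = 0.0105), a call that was lost without cast replicates 1 and 2 together (adjusted p = 0.0805). The receptors Neo1, at 98.2 ± 22.8 and 153 ± 75.1 (adjusted p = 0.307), and Unc5b, at 12.6 ± 2.11 and 15.02 ± 3.46 (adjusted p = 0.560), were not called. Dcc had no row under that symbol and so was not analysed here. Draxin, a secreted netrin antagonist, rose, at 0.522 ± 0.414 and 12.1 ± 7.91 (log2 fold change 2.91, adjusted p = 0.00491). Hfe2, which encodes the muscle protein hemojuvelin, fell from 2.70 ± 1.48 to 0.24 ± 0.313 (adjusted p = 0.0287). Adding the muscle covariate ended that call (adjusted p = 0.397), as did thinning (0.0586), leaving out both cast replicates 1 and 2 (0.0906) and dropping any 1 library other than naive replicate 4 or cast replicate 1 (highest adjusted p = 0.0885). Of 14 tested genes 1 rose, 3 fell and 10 did not pass, with a median of -0.16.

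**Figure D3:**
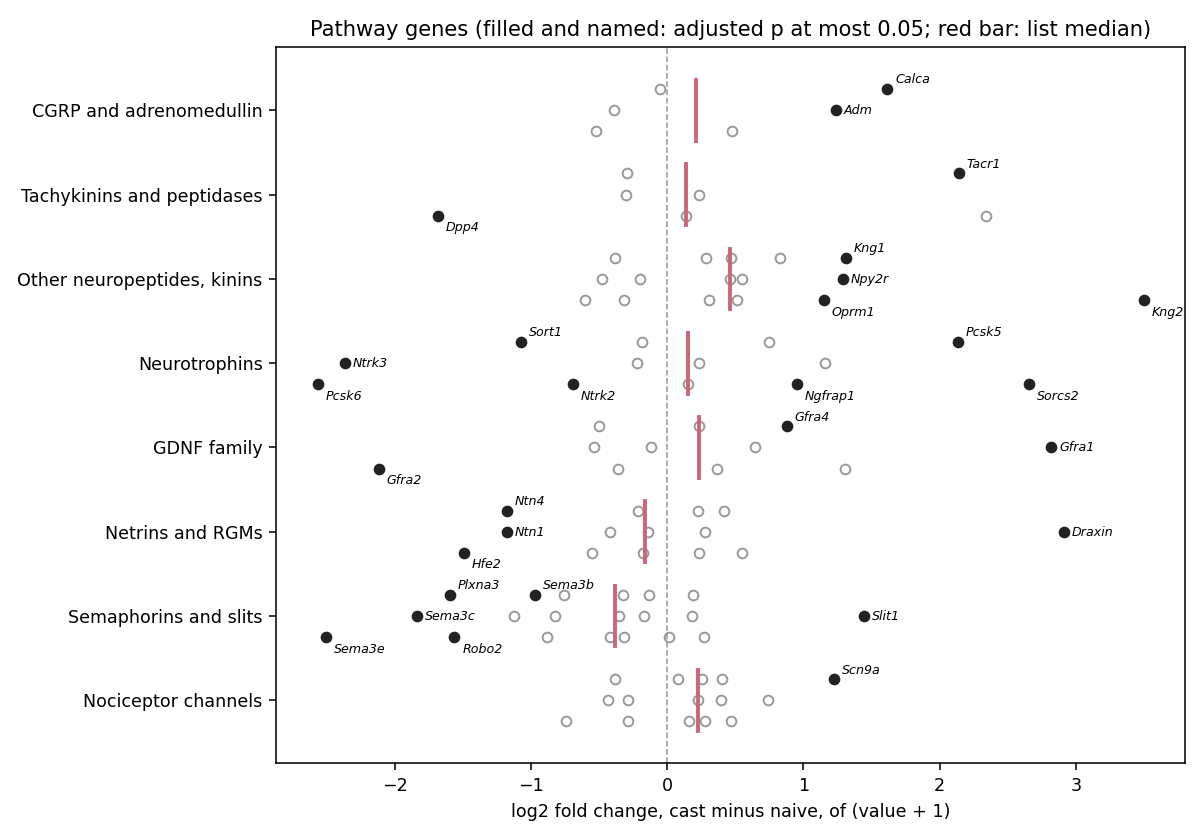
Log2 fold change, cast minus naive, of each tested gene in the 8 pathway lists; filled, named points passed an adjusted p of 0.05 and the red bar is the list median. Medians lie between -0.38 (semaphorins and slits) and 0.46 (other neuropeptides and kinins), with calls on both sides in the tachykinin, neurotrophin, GDNF, netrin and semaphorin lists.

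Trpv1, the capsaicin receptor gene (chromosome 11, 73234292 to 73261242, plus strand), showed no difference beyond its spread. Its value was 5.27, 0.645, 6.78 and 7.12 in naive replicates 1 to 4 and 1.98, 5.40, 7.23 and 8.002 in cast replicates 1 to 4. Naive replicate 2 and cast replicate 1 were low, and the other libraries of both groups overlapped. The log2 fold change was 0.28 (95% interval -0.94 to 1.50, adjusted p = 0.780), and its sign turned without naive replicate 2 (-0.26, adjusted p = 0.726) and with the muscle covariate. Of 15 tested ion channels of nociceptors, the nerve cells that report damage, Scn9a rose and 14 did not pass, with a median of 0.23. Scn9a, a sodium channel of pain fibres, had 1 naive and 40 cast reads (pooled ratio 29.6, 95% counting interval 5.02 to 1199; adjusted p = 0.0129). Gm13629 overlaps its exons on the opposite strand. Trpa1 had no row under that symbol and so was not analysed here. Trpv4, a channel that responds to osmotic stretch, was 30.5 ± 5.17 and 24.9 ± 5.197 (log2 fold change -0.29, adjusted p = 0.412). The sign of Trpv4 turned with the muscle covariate, while array weights called it lower (log2 fold change -0.48, adjusted p = 0.0308).

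Per length of transcript, the members spanned a wide range. Per kb of the longest coding transcript, the naive order of mean values was Ntn1 (87.7), Calcrl (44.9), Ramp1 (3.98), Ntf3 (2.08), Trpv1 (1.47), Tacr1 (1.33), Calca (0.162), Gdnf (0.142) and Bdnf (0.0752). From Ramp1 down to Tacr1, neighbours in that order overlapped between libraries, as did Calca, Gdnf and Bdnf, whereas Ntn1 and Calcrl, Calcrl and Ramp1, and Tacr1 and Calca did not. In cast libraries the order of the same quantity was Ntn1 (38.7), Calcrl (27.5), Tacr1 (6.12), Ntf3 (4.06), Calca (3.43), Ramp1 (3.12), Trpv1 (1.68), Bdnf (0.469) and Gdnf (0.247). Each neighbouring pair overlapped there except Calcrl and Tacr1. Tacr1 was thus the sixth in naive and the third in cast capsules, where its range overlapped those of Ntf3, Calca and Ramp1.

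Nerve and other cell markers were read beside the members. Of 17 neuron and axon markers, 10 had a row and 5 were tested, Avil fell, and the 10 summed to only 13.6 to 25.9 in naive and 9.23 to 22.4 in cast libraries. All 13 Schwann cell markers were tested, of which Scn7a rose and S100b and Egr2 fell, and they summed to 648 to 744 and 741 to 1121. Mural markers summed to 1372 to 2224 and 1496 to 1756, with Cspg4 lower. Fibroblast markers, all 10 of them tested, summed to 28163 to 46726 and 26449 to 44270, with Lum higher. Macrophage markers summed to 1901 to 3697 and 2660 to 4186, and limma called 0 of 8 (2 at an unadjusted p under 0.05; edgeR called 0 and DESeq2 1). Fat cell markers summed to 2907 to 3353 and 1412 to 4078, and 3 of 6 fell. Mast cell markers summed to 80.9 to 217 and 162 to 480.1, and 2 of 8 rose. Chondrocyte markers summed to 665 to 1084 and 603 to 845, with Matn3 higher and Col2a1 lower. Among neutrophil markers 7 of 8 rose, among muscle markers 5 of 11 fell, and among marrow precursor markers 1 of 4 rose. The part of these cells in the values of Tacr1, Calca and Ntn1 was not tested. The muscle covariate is no such test, because muscle level went largely with group. The muscle sum was 1571 to 2790 in naive replicates 1 to 3, against 114 in naive replicate 4 and 16.3 to 390 in cast libraries. Fits with that covariate therefore lean on naive replicate 4.

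The genes whose profiles over the 8 libraries lay nearest to each member were listed by the root mean square difference of centred log2 values, over members and candidates with a mean of at least 5. For Ntn1 they were Snx21 (0.109), Por (0.13) and Tlcd1 (0.144), against a root mean square of 0.645 for Ntn1 itself. For Tacr1 they were Cd300ld (0.28), Tnfsf13b (0.410) and Hist1h3d (0.417), against 1.22. For Calcrl they were Pkia (0.206), Shox2 (0.209) and Prkaa2 (0.222), against 0.644, and like Calcrl, none of these 3 passed limma's test. For Ramp1 (Pced1b, Mir143hg and H2-Q7, 0.353 to 0.387) the member's own root mean square was 0.731, and for Trpv1 (Mrps28, Dynlt1c and Trp63, 0.375 to 0.382) it was 0.814.

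Across the alternative fits, Tacr1 and Ntn1 stayed past the threshold in all 23 that were run, while the calls of the other members moved. Calca was past the threshold in 10 of 22 fits that could include it, Bdnf in 8 of 22, Ntf3 in 2 of 23 and Calcrl, in its downward direction, in 2 of 23.

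**Figure D4:**
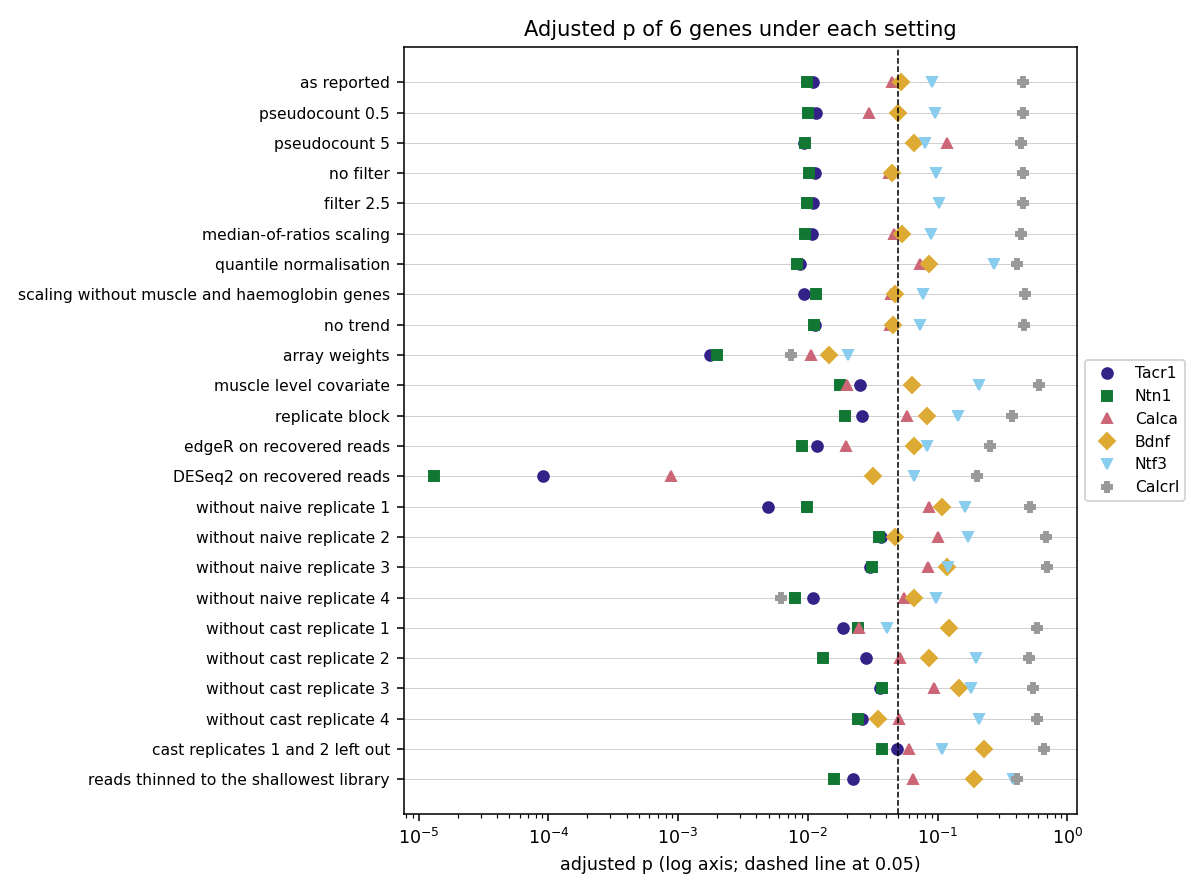
Adjusted p of 6 members under each setting on a log axis, with the threshold of 0.05 as a dashed line; a missing point means that the gene was below that setting's filter. Tacr1 and Ntn1 lie left of the line in every row, and Calca and Bdnf lie on both sides of it.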

How the data were processed

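RNA from posterior knee joint capsules was sequenced as directional, ribosomal RNA-depleted libraries with paired reads, per the labels' protocols. Those protocols name Trimmomatic 0.38, Bowtie2 within RSEM and the human build hg38, whereas the mouse build mm10, with edgeR, RSEM, Bowtie2 and Trimmomatic 0.36, is named per the submitters' processing notes. These conflict, and the symbols in the table are mouse symbols. No source used here gives the annotation or strand setting. The authors deposited a signal, which is a normalised read count for each gene in each library. All values (100%) came out as whole multiples of their library's smallest step, with a tolerance of 0.01, so whole reads were recovered from the steps. The smallest sum of reads of any gene was 8.

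Here values were taken to log2 after adding 1, genes whose mean value reached 0.5 entered the test, and groups were compared with limma-trend (Benjamini-Hochberg adjustment over all genes tested). Single members were also compared with exact permutation tests over 70 assignments. Alternatives were other pseudocounts, filters, scalings and variance models, a muscle covariate, a replicate block, edgeR and DESeq2 on recovered reads, and each library left out. Leaving out cast replicates 1 and 2 together and thinning were added after seeing the data. No batch is given in the labels. Replicates of a group differed well beyond sampling noise (chi-square per degree of freedom at least 14.2), so no library was treated as a duplicate. The fitting scripts were tested on simulated data.

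The members and lists were chosen with earlier results of these data known. Named genes were the members, up to 4 called genes per pathway list with the smallest p, fixed partner genes, and the 3 genes nearest in profile. Some genes of the lists are not reported here. Coordinates and lengths come from GENCODE M21 (GRCm38), promoters from RefSeq (GRCm38.p6). Lists and figures were made in Python 3.11.15 (matplotlib 3.10.9, numpy 2.4.6, pandas 2.3.3), and tests were run in R 4.3.3 with DESeq2 1.42.0, edgeR 4.0.16 and limma 3.58.1.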

Additional observations from a re-analysis of the deposited data

Results flagged for a closer look

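Within groups of 4 libraries, the highest or lowest value was checked for a gap to the nearest other library that was a large share of the group's range (past Dixon's 95% limit). This was run on 76 groups of 38 named genes, of which 9 were past the limit. Chance alone gives about 1 in 20 for continuous values, a rate that does not hold for groups with very few reads.

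Calca in cast replicate 1 (9.06) stood far above the other cast libraries (1.20 to 2.05). Bdnf in naive replicate 2 (0.968) stood above the other naive libraries (0 to 0.165). Gfra2 (39.5) and Ngfr (6.47) were high in naive replicate 4 against at most 23.7 and 2.41 in the other naive libraries. Sema3e was 32.5 in cast replicate 4 against 15.1 to 16.7 in the other cast libraries. In 4 genes a single naive library held all reads of the group, at most 3 in all: Ramp3 in naive replicate 1 (0.452), Oprm1 in naive replicate 1 (0.452), Scn9a in naive replicate 2 (0.161) and Kng1 in naive replicate 2 (0.323). Such a group is past the limit by construction.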

How the results depend on the processing

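Tacr1 and Ntn1 kept their direction and call in all alternatives run. Over all genes, 1810 were called, against 3985 with array weights, 3810 with the muscle covariate, 2754 by DESeq2 and 717 without cast replicates 1 and 2. Genes higher in cast libraries numbered 984, against 2168, 2544 and 374 in the first, second and last of these. Genes lower numbered 826, against 1817, 1266, 1290 and 343. With 1 library left out, 916 (without cast replicate 3) to 2665 (without naive replicate 4) were called, 510 to 1382 higher and 406 to 1283 lower. Members called numbered 3, with 2 to 4 when 1 library was left out (1 to 3 higher, 1 to 2 lower) and 6 with array weights (4 higher, 2 lower). Members higher numbered 1 in place of 2 with a pseudocount of 5, the filter at 2.5, quantile normalisation, the replicate block, thinning, and without cast replicates 1 and 2.

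Calca had log2 fold changes of 0.61 with a pseudocount of 5 (adjusted p = 0.118), 1.39 with quantile normalisation (0.0733), 1.21 without cast replicates 1 and 2 (0.0606), 1.61 with thinned reads (0.0652), and 1.11 to 1.85 with 1 library left out. The filter at 2.5 dropped Calca, Bdnf and Gdnf. Bdnf passed with a pseudocount of 0.5 (1.62), no filter (1.16), scaling without muscle and haemoglobin genes (1.18), no trend (1.16), array weights (1.12) and DESeq2 (2.40), and ranged from 0.98 to 1.38 with 1 library left out. Array weights also called Ntf3 (0.73) and Calcrl (-0.88). With 1 library left out, Ntf3 ranged from 0.59 to 0.93, Calcrl from -0.97 to -0.29, Ramp1 from -0.36 to 0.41 and Trpv1 from -0.26 to 0.63. With the muscle covariate Calcrl was 0.37 and Trpv1 -0.50. Ramp1 turned to 0.26 with array weights and 0.27 with thinned reads.

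Among partner genes, Ngfr turned with the muscle covariate (-1.15) and thinned reads (-0.070) and ranged from -0.10 to 0.55 with 1 library left out. Trpv4 was 0.16 with the muscle covariate and -0.48 with array weights (called). The cause of these changes was not tested.

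The sample titles do not say whether replicate numbers pair the libraries. Same-numbered libraries had correlations of -0.0571 to 0.0797 in their deviations from the group means. Of all libraries, only naive replicate 1 correlated best with its own number (0.0797). Naive replicates 2, 3 and 4 correlated best with cast replicates 1 (0.234), 4 (0.23) and 2 (0.173). With 4 libraries per group, however, these values cannot exclude a pairing. With the replicate block, 1371 genes were called and Calca was lost (log2 fold change 1.62, adjusted p = 0.0578), as were the partner or list genes Ntrk2 (0.0583), Oprm1 (0.0605) and Gfra4 (0.0697). Bdnf, Calca and Gdnf rest on 8, 4 and 13 naive reads, which limits what depth can show for them.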

Other observations

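Further neuropeptide and guidance genes, from lists written with earlier results of these data known, were called beside the members. Among 16 tested genes of other neuropeptides, opioids, kinins and their receptors 4 rose and 12 did not pass, with a median log2 fold change of 0.46 beside 0.07 for all genes tested. Kng2, a kininogen and so a precursor of kinins, rose, with 1.07 ± 0.399 in naive and 22.6 ± 6.09 in cast libraries (log2 fold change 3.50, adjusted p = 0.00016). Kng1, the other kininogen, had 2 naive and 50 cast reads (pooled ratio 18.5, 95% counting interval 4.87 to 157; adjusted p = 0.0127), a call that ended with thinned reads (adjusted p = 0.344) and with the muscle covariate (0.0685). Reads of such close paralogs may be split uncertainly between them. Npy2r, a neuropeptide Y receptor, had 2 naive and 47 cast reads (adjusted p = 0.0203), a call that ended when naive replicate 2 or 3 or cast replicate 2 was dropped (highest adjusted p = 0.0618) and with thinned reads (0.0552). Oprm1, the mu opioid receptor, had 3 naive and 42 cast reads (adjusted p = 0.0308), a call that ended when naive replicate 2 or 3 or cast replicate 1, 2 or 3 was dropped (highest adjusted p = 0.0848), and with thinned reads (0.337), the muscle covariate (0.116), quantile normalisation (0.0758), the replicate block (0.0605) or a pseudocount of 5 (0.0548).

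Of 20 tested class 3 semaphorins, slits and receptors 1 rose, 5 fell and 14 did not pass, with a median of -0.38. Sema3e, a repulsive cue of vessels and axons, fell from 114 ± 5.69 to 20.2 ± 8.23 (log2 fold change -2.50, adjusted p = 0.000371). Sema3c fell from 267 ± 92.0 to 71.0 ± 14.4 (log2 fold change -1.83, adjusted p = 0.00477). Plxna3, a semaphorin co-receptor, fell from 23.7 ± 4.49 to 7.61 ± 3.58 (log2 fold change -1.59, adjusted p = 0.0104), a call that was lost with thinned reads (adjusted p = 0.0586). Slit1, an axon repellent, rose, at 0.762 ± 0.177 and 3.89 ± 1.22 (log2 fold change 1.44, adjusted p = 0.00491).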
